A study of Mus musculus with 24 samples.

Results

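The cell cycle and mitosis genes described here are a list of 38 genes picked by name, with earlier results of these data known. All of them were found among the 25190 genes of the organoid count table. They were divided into 14 genes of the G1/S transition and DNA replication (S phase genes) and 24 genes of mitosis (mitotic genes), in 7 role groups. Levels were measured by bulk RNA sequencing in 12 libraries of mouse cochlear organoids, and, for level only, in 12 libraries of mouse inner ear soft tissue.

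The organoids were grown from cochlear epithelium of mice at postnatal days 1 to 2. All 4 groups went through the same culture, with 8 to 10 days of expansion in the growth factors EGF, bFGF and IGF (EGF at 50 ng/mL) and the GSK3 inhibitor CHIR99021 at 3.5 µM, then 7 to 8 days of differentiation without growth factors in CHIR99021 at 3 µM and the gamma-secretase inhibitor LY411575, then 9 to 10 days in low EGF and bFGF (10 ng/mL). The groups were untreated organoids (control), organoids given TNF-α (TNF), organoids with lentiviral knockdown of RBM25 (knockdown) and organoids with both (knockdown plus TNF), with 3 libraries each. RBM25 is a splicing factor, and TNF-α is an inflammatory cytokine. The sample titles call the knockdown a knockout, and no control virus is named for the control, so knockdown of RBM25 and infection with lentivirus cannot be told apart. The labels state neither the dose of TNF-α nor how long it was given. Nothing in the labels says that the 3 libraries of a group came from separate cultures, so p-values measure the spread between these libraries, which may be technical. The inner ear libraries came from male C57BL6/J mice at 3, 11 and 20 months, 4 per age.

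A cell that enters the cycle first switches on genes for DNA replication. E2F1 drives their transcription, cyclin E with its kinase carries the cell into S phase, CDC6 and CDT1 load the MCM2 to MCM7 helicase onto origins, and PCNA, ribonucleotide reductase and thymidylate synthase serve DNA synthesis itself. Genes for mitosis peak later, in G2 and M phase. They encode the kinase CDK1 and its cyclins A and B, the spindle checkpoint, the chromosomal passenger complex, the anaphase-promoting complex that ends mitosis, and the motors and microtubule proteins of the spindle. In the postnatal mouse cochlea hair cells and supporting cells are largely out of the cycle, while cochlear progenitors can be made to divide in organoid culture.

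Promoter sequences show a feature whose frequency differs between the S phase and mitotic genes and which played no part in how the list was made. RefSeq promoters (GRCm38.p6, 250 bases before to 50 bases after the start) were matched for 31 of the 38 genes, as 33 entries, since Mcm7 and Prc1 have more than 1. Aurkb, Ccna2, Ccne2, Foxm1, Kif20a, Mcm4 and Tpx2 were not matched. Both strands were searched for TTTGAA (the core of the cell cycle homology region, CHR), CCAAT (the NF-Y box) and the E2F sites TTTCCCGC, TTTCGCGC, TTTGCCGC and TTTGGCGC. A CHR match was present in 15 of 20 mitotic promoters (75.0%), in 1 of 13 S phase promoters (7.69%, that of Mcm2) and in 17.9% of all 32851 promoters of the same length. An E2F match was present in 1 of 20 mitotic promoters (5.0%, that of Cdk1), in 6 of 13 S phase promoters (46.2%) and in 2.26% of all promoters. CCAAT was present in 90.0% of mitotic, 61.5% of S phase and 37.4% of all promoters. CHR and CCAAT occurred together in 75.0% of mitotic, 7.69% of S phase and 6.95% of all promoters. A match describes these letters in this window and is not evidence that a factor binds there.

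The promoters of 5 genes are printed because they hold these motifs and belong to genes on which the results below turn, with matches on either strand in capitals and the rest in lower case. Mcm7 (chr5:138171834-138172133, minus strand), Cdc20 (chr4:118437294-118437593, minus strand) and Ube2c (chr2:164769679-164769978, plus strand) follow from a rule on level and fold change, and Top2a (chr11:99024140-99024439, minus strand) and Mki67 (chr7:135716330-135716629, minus strand) were chosen after their values were seen. Capitals in Mcm7 are 2 E2F sites and 3 CCAAT boxes, where the last CCAAT overlaps the second E2F site. The other Mcm7 entry (chr5:138171217-138171516, minus strand), not printed, holds 1 CCAAT box and 0 E2F sites.
Mcm7: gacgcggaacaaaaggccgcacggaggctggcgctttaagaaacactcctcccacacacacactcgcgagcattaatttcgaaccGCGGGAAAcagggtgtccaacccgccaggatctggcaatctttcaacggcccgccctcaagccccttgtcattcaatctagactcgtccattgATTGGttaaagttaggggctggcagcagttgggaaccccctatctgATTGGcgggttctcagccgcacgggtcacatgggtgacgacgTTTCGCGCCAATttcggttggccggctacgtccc
Cdc20: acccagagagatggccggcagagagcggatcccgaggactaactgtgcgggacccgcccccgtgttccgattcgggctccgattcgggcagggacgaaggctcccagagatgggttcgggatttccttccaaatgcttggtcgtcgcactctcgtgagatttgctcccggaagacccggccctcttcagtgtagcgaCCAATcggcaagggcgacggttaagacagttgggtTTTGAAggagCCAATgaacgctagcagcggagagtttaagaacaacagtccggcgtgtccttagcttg
Ube2c: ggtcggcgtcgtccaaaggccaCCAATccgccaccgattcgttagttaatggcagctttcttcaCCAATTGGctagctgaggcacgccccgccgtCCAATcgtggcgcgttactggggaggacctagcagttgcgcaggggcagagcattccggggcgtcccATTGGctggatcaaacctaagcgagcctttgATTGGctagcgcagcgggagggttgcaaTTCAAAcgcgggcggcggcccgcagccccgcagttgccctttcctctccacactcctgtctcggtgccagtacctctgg
Top2a: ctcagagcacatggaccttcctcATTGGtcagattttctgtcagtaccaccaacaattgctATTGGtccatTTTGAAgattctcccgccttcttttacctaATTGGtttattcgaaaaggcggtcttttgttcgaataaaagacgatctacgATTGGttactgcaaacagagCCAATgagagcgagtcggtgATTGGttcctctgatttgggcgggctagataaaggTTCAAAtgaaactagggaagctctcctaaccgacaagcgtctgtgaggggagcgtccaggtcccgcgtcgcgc
Mki67: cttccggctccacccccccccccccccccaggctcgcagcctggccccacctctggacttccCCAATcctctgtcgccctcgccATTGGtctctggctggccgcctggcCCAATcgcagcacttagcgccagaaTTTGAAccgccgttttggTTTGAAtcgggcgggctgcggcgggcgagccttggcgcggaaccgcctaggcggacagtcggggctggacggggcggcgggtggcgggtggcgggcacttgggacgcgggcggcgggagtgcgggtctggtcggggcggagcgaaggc
In the other 4 promoters the capitals are CHR and CCAAT matches, read TTCAAA and ATTGG where they lie on the opposite strand. Cdc20 and Ube2c hold 1 CHR match each, Top2a and Mki67 hold 2 each, and 2 CCAAT matches of Ube2c on opposite strands overlap each other.

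Depth was similar in the 12 organoid libraries, at 33802411 to 37048422 counted reads, and 15888 genes passed a filter on low counts. CPM below are counts scaled to library size after trimmed-mean adjustment, and FPKM are the deposited values per length. Rbm25 itself had 142, 148 and 144 CPM in the control, 150, 163 and 173 with TNF, 96.9, 94.2 and 92.7 in the knockdown and 103, 122 and 108 in knockdown plus TNF, so every knockdown library was below every library without it (knockdown versus control, log2 fold change -0.61 ± 0.06, standard error, adjusted p = 1.01e-07). Genes that mark other cells moved with the groups as well. Summed hair cell markers (10 genes, of which Ocm was at 0 in the control) ranged over 360–374 CPM in the control, 306–351 with TNF, 551–782 in the knockdown and 417–519 in knockdown plus TNF, and 8 of the 9 tested were higher in the knockdown. Summed markers of cochlear supporting cells (10 genes) were 6198–6483, 2338–2839, 3110–3488 and 1928–2060 CPM in the same order. Fibroblast markers (9 genes) summed to 1492–1526, 1060.5–1351, 851–1024 and 646–949 CPM, a sum made up mostly of Lum and Dcn, while 6 of the 9 had a positive log2 fold change in the knockdown (median 1.15, 2 called higher and 3 lower) and 4 were called higher and 2 lower in knockdown plus TNF against control (median 1.09). Among all genes tested, 24.4% were called higher and 28.2% lower in the knockdown. In knockdown plus TNF against control the shares were 30.1% and 30.5%. Fibroblast calls in the knockdown were near the shares of all genes. Endothelial markers (5 genes, Tie1 at 0 in the knockdown groups) were 15.4–17.3, 13.8–19.2, 35.1–48.2 and 31.3–42.7 CPM. Epithelial markers (6 genes) were 2585–2617, 3307–3839, 2254–2469 and 2586–3023 CPM, those of Schwann cells and glia (5 genes in the table) 791–799, 531–667, 740–749 and 654–708 CPM, and those of neurons (6 genes) 8.75–8.89, 12.6–17.7, 16.9–22.6 and 14.6–24.8 CPM. Leukocyte markers summed to at most 2.27 CPM in any library, with Ptprc at 0 in 3 of the 4 groups, erythroid and marrow markers to at most 0.953 CPM and melanocyte markers to at most 3.45 CPM. The part that a shift in cell types plays in the results below was not tested, and in bulk RNA fewer cells of a type and less RNA per cell cannot be told apart.

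In untreated organoids the cell cycle genes were low, and the S phase genes were the more abundant. Per length, Pcna, the sliding clamp of DNA polymerase, led at 27.9 FPKM, followed by Cdc20, an activator of the anaphase-promoting complex, at 10.4 FPKM, and by Mcm7, Mcm4 and Mcm6 at 6.09, 4.64 and 4.12 FPKM. The order ended with Mki67, the proliferation antigen Ki-67, at 0.0457 FPKM, Cenpf at 0.0338, Aurkb at 0.0301 and Bub1 at 0.0193 FPKM. Several genes of both kinds were read only a few times. The 3 control libraries together held 9 reads of Bub1, 8 of Ube2c and 7 of Aurkb, against 3744 of Pcna and 1975 of Cdc20. Among S phase genes they held 17 reads of Rrm2, 18 of Ccne2, 27 of E2f1 and 29 of Ccne1. All 38 genes passed the filter on low counts, but 8 of them (Ccne1, Ccne2, Rrm2, Ccnb1, Ccnb2, Bub1, Aurkb and Ube2c) passed only through the knockdown libraries, where they were higher, so they had to differ to be tested. Counts in comparisons with a knockdown group are therefore given for the 38 genes and again for the other 30.

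Knockdown of RBM25 was compared with the control to ask how the organoids change when this splicing factor is reduced. Of the 38 cell cycle genes, 31 were higher in the knockdown and 0 lower, where 24.4% of all genes tested were called higher and 28.2% lower (edgeR quasi-likelihood test, adjusted p under 0.05 over all 15888 genes). Among the 30 genes that did not depend on the knockdown libraries to be tested, 24 were higher and 0 lower, with a median log2 fold change of 0.82. The median over the 38 was 1.06, against -0.03 over all genes tested. At least 2-fold higher were 20 of the 38 and 13 of the 30, where 9.93% of all genes were. The 7 genes not called were Ccne1, Mcm4, Pcna, Tyms, Foxm1, Plk1 and Aurka.

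**Figure D1:**
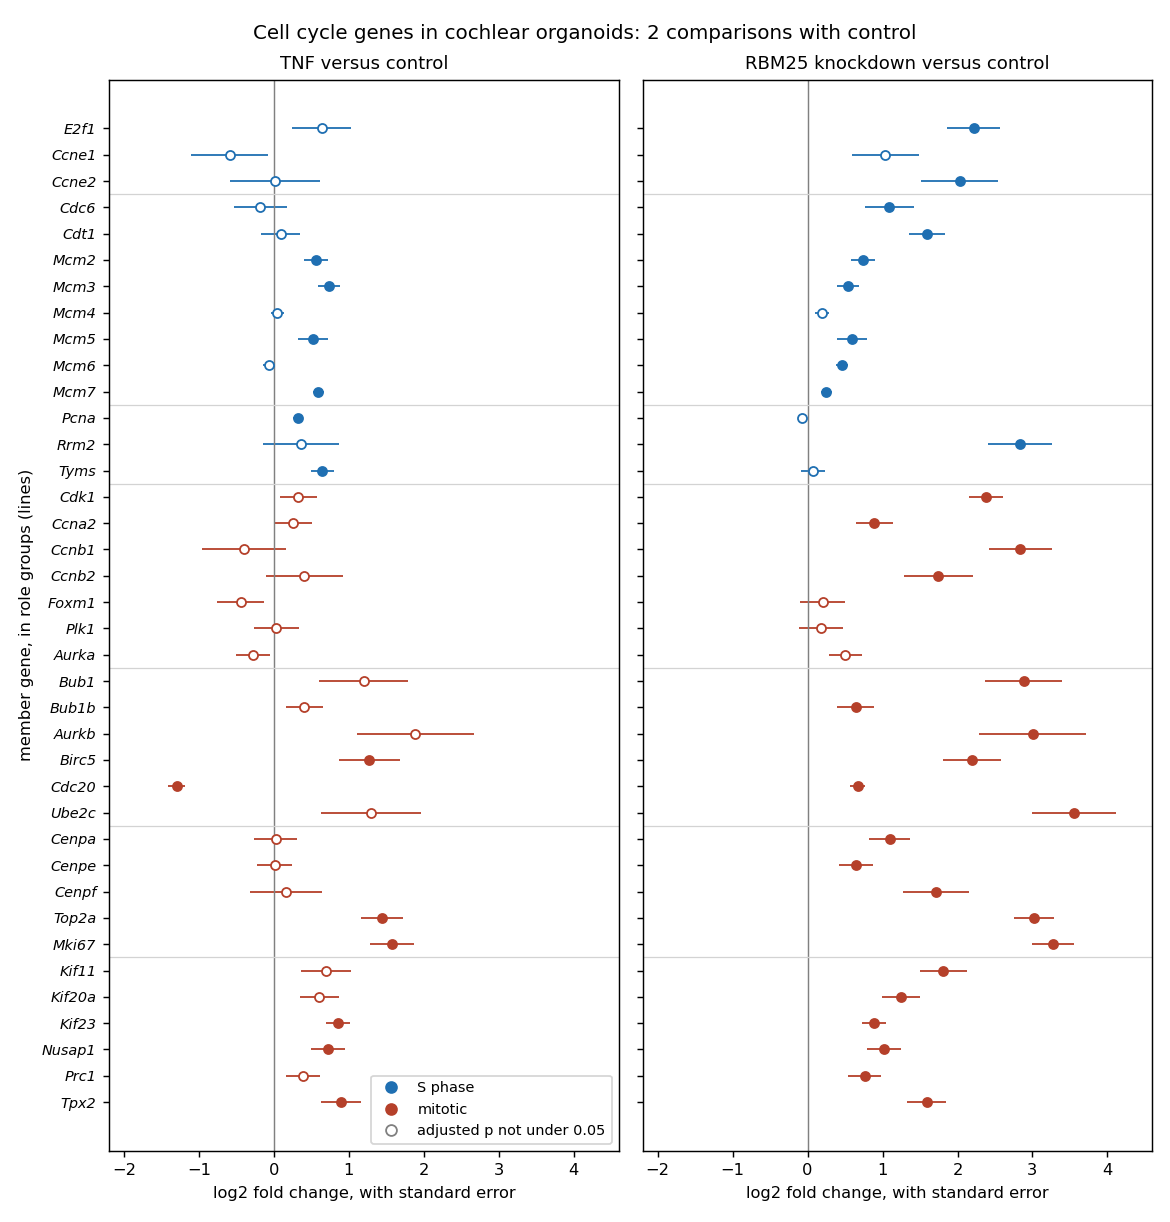
Log2 fold change of each of the 38 genes (points, with standard error) for TNF versus control on the left and RBM25 knockdown versus control on the right, in role groups from S phase (blue) to mitosis (red), with open points where the adjusted p was not under 0.05. In the knockdown 31 points are filled, all of them right of 0, while with TNF 13 are filled and Cdc20 lies left of 0.

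Of the 14 S phase genes 10 rose, and so did 8 of the 11 that were tested without help from the knockdown libraries, 7 of them licensing and helicase genes. E2f1, a transcription factor of S phase genes, had 0.344, 0.173 and 0.265 CPM in the control and 1.30, 1.31 and 1.06 in the knockdown (log2 fold change 2.22 ± 0.36, adjusted p = 3.71e-05). All knockdown libraries were above all control libraries. Ccne2, a cyclin E gene, rose by 2.03 ± 0.51 (adjusted p = 0.00256), while Ccne1, the other cyclin E gene, had 0.143, 0.318 and 0.383 CPM in the control and 0.312, 0.697 and 0.737 in the knockdown, with overlap between the groups (1.03 ± 0.45, adjusted p = 0.0605). Both cyclin E genes were tested only because they reached the filter in the knockdown libraries. Of the 8 origin licensing and helicase genes 7 rose, Cdt1 and Cdc6 by 1.59 ± 0.24 and 1.09 ± 0.33 and the helicase subunits Mcm2, Mcm3, Mcm5, Mcm6 and Mcm7 by 0.25 to 0.74. Mcm6 had 18.4, 20.0 and 18.0 CPM in the control and 24.2, 26.1 and 27.2 in the knockdown (0.46 ± 0.08, adjusted p = 6.9e-05). The call for Cdc6 did not hold without knockdown replicate 1 (0.77, adjusted p = 0.0733), nor that for Mcm5 without control replicate 1 (adjusted p = 0.0966) or knockdown replicate 2 (adjusted p = 0.0821).

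The 3 genes of the replication clamp and nucleotide supply did not move together. However, Rrm2 was tested only because it reached the filter in the knockdown libraries, while Pcna and Tyms did not need them. Rrm2, the regulated subunit of ribonucleotide reductase, had 0.115, 0.144 and 0.235 CPM in the control and 1.20, 1.25 and 1.12 in the knockdown (2.83 ± 0.43, adjusted p = 1.83e-05), 7.11-fold higher. Pcna had 36.6, 35.1 and 36.9 CPM in the control and 32.7, 35.0 and 35.6 in the knockdown, and the groups overlapped (-0.07 ± 0.06, adjusted p = 0.341). Tyms, thymidylate synthase, had 4.24, 3.26 and 4.74 CPM against 4.29, 4.32 and 4.31 (0.08 ± 0.16, adjusted p = 0.712), and the difference turned to -0.06 without control replicate 2.

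**Figure D2:**
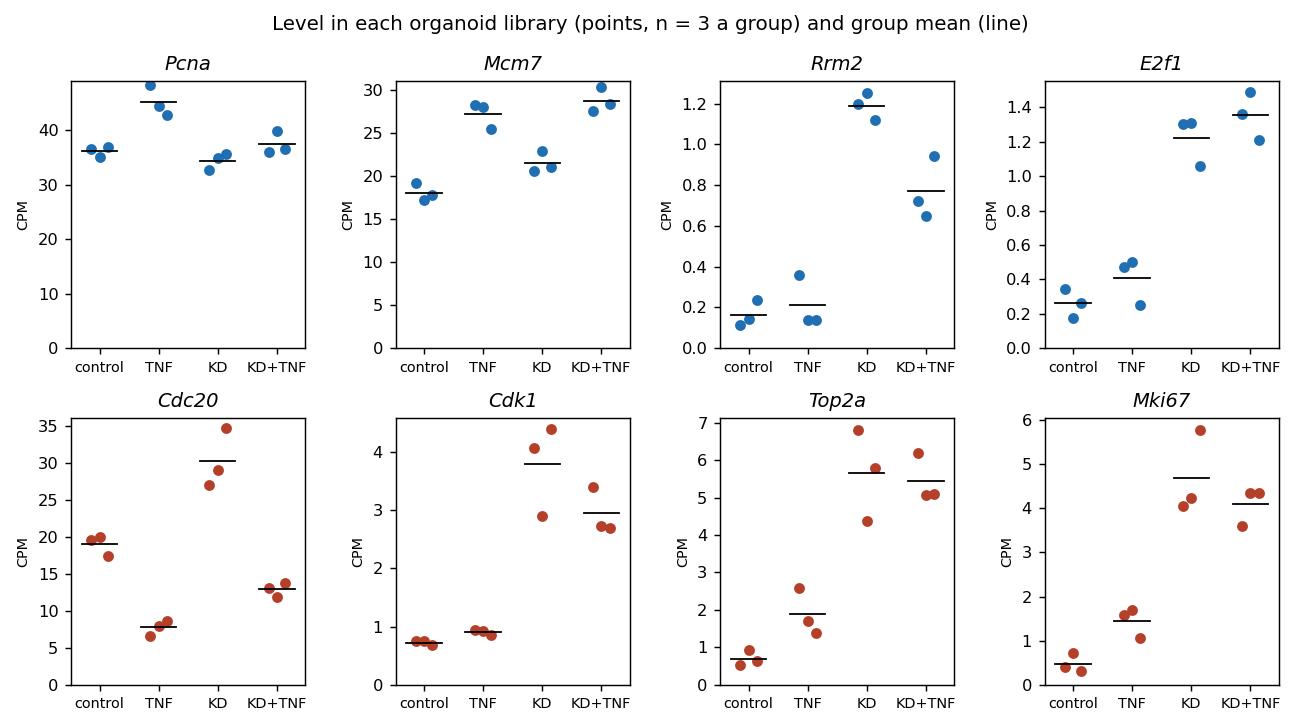
CPM of 4 S phase genes (blue, top) and 4 mitotic genes (red, bottom) in each of the 12 organoid libraries, 3 points a group with the group mean as a line and axes from 0, where KD stands for the RBM25 knockdown. Rrm2, E2f1, Cdk1, Top2a and Mki67 are higher in every library with the knockdown than in every library without it, Mcm7 is higher in every library with TNF than in every library without it, Pcna is highest with TNF alone, and Cdc20 is lower with TNF both without and with the knockdown.

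Of the 24 mitotic genes 21 rose. Of the 19 that were tested without help from the knockdown libraries 16 rose, with a median log2 fold change of 1.02, against 1.41 over all 24. Cdk1, the kinase that drives mitotic entry, had 0.746, 0.751 and 0.677 CPM in the control and 4.06, 2.90 and 4.39 in the knockdown (2.38 ± 0.23, adjusted p = 6.66e-08). Its cyclin genes Ccnb1, Ccnb2 and Ccna2 rose by 2.84 ± 0.42, 1.75 ± 0.46 and 0.89 ± 0.25, although Ccnb1 and Ccnb2 were tested only through the knockdown libraries. Ccna2 had 1.75, 1.13 and 1.03 CPM in the control and 2.32, 1.95 and 3.01 in the knockdown. The other 3 mitotic drivers were not called. Plk1, a mitotic kinase, had 1.26, 0.606 and 1.12 CPM against 1.22, 1.03 and 1.12 (0.18 ± 0.29, adjusted p = 0.643), Foxm1, a transcription factor of mitotic genes, differed by 0.20 ± 0.30 (adjusted p = 0.604), and Aurka, a kinase of the spindle poles, by 0.50 ± 0.22 (adjusted p = 0.0641).

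All 6 genes of the spindle checkpoint, chromosomal passengers and anaphase-promoting complex rose, although Ube2c, Aurkb and Bub1 were tested only because they reached the filter in the knockdown libraries. Ube2c, the ubiquitin-conjugating enzyme of that complex, had 0.0574, 0.0578 and 0.118 CPM in the control and 0.911, 0.947 and 0.973 in the knockdown (3.55 ± 0.56, adjusted p = 3.04e-05). Aurkb and Birc5, which encode the kinase and survivin of the chromosomal passenger complex, rose by 3.00 ± 0.71 and 2.19 ± 0.38, and the checkpoint kinase gene Bub1 by 2.88 ± 0.51. Cdc20 had 19.7, 20.0 and 17.5 CPM in the control and 27.1, 29.1 and 34.8 in the knockdown (0.67 ± 0.10, adjusted p = 2.26e-05). Bub1b, which encodes the checkpoint protein BUBR1, had 2.32, 1.47 and 1.12 CPM in the control and 2.50, 2.51 and 2.68 in the knockdown (0.64 ± 0.25, adjusted p = 0.0352). This call did not hold without control replicate 2 or 3 (adjusted p = 0.113 and 0.174) or knockdown replicate 2 or 3 (adjusted p = 0.0645 and 0.0822).

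All 5 genes of centromeres and chromosomes and all 6 of the spindle and cytokinesis rose as well. Mki67 had 0.401, 0.722 and 0.324 CPM in the control and 4.06, 4.24 and 5.78 in the knockdown (3.27 ± 0.28, adjusted p = 1.45e-08), 9.64-fold higher and the largest change of the 30 genes that did not need the knockdown libraries to be tested. Top2a, the DNA topoisomerase that untangles sister chromatids, had 0.516, 0.924 and 0.647 CPM against 6.82, 4.37 and 5.78 (3.02 ± 0.26, adjusted p = 2.07e-08). The centromere genes Cenpf, Cenpa and Cenpe rose by 1.71 ± 0.44, 1.09 ± 0.28 and 0.65 ± 0.23, the last no longer called without control replicate 2 or 3 or knockdown replicate 3 (adjusted p = 0.0527, 0.0532 and 0.0534). The motor gene Kif11 rose by 1.81 ± 0.31, Tpx2, a spindle assembly factor, by 1.59 ± 0.26, and Kif20a and Nusap1 by 1.24 ± 0.25 and 1.02 ± 0.23. Kif23, a motor of the central spindle, had 2.52, 3.87 and 2.68 CPM in the control and 5.46, 5.57 and 5.72 in the knockdown (0.88 ± 0.16, adjusted p = 0.00013). Prc1, which bundles central spindle microtubules, had 1.41, 1.73 and 1.65 CPM against 2.42, 2.87 and 2.83 (0.76 ± 0.22, adjusted p = 0.00716).

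The library kit named in the labels does not mark strand, so genes whose exons overlap another gene are uncertain. The share of exonic bases that another GENCODE gene also covers was 29.3% for Kif20a (Cdc23), 22.8% for Ube2c (Tnnc2), 17.4% for Ccne2 (Ints8), 12.6% for Mcm7 (Ap4m1, Cops6 and microRNA genes), 12.5% for Ccna2 (Exosc9) and 11.1% for Prc1 (Rccd1), and 5 further members shared less.

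TNF was compared with the control to ask how the cytokine alone changes the organoids. Of the 38 genes, 12 were higher and 1 lower, all 13 among the 30 that did not need the knockdown libraries to be tested, where 23.3% of all genes tested were called higher and 24.2% lower. The median log2 fold change was 0.40, against -0.02 over all genes tested. At least 2-fold higher were 3 genes (Mki67, Top2a and Birc5), where 4.54% of all genes were. Birc5 reached the cutoff of the filter in 1 control library and in 4 of the 6 libraries without the knockdown. It counts among the 30 only with the TNF libraries, where it was higher. The genes that rose were Mcm2, Mcm3, Mcm5, Mcm7, Pcna and Tyms of S phase and Birc5, Top2a, Mki67, Kif23, Nusap1 and Tpx2 of mitosis.

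Mcm7, a subunit of the replicative helicase, had 19.2, 17.2 and 17.8 CPM in the control and 28.2, 28.0 and 25.5 with TNF (0.59 ± 0.07, adjusted p = 1.96e-06), with no overlap. Pcna had 48.3, 44.5 and 42.8 CPM with TNF, all above the control (0.32 ± 0.06, adjusted p = 0.000248), and Tyms had 6.71, 7.24 and 5.25 (0.65 ± 0.16, adjusted p = 0.00227). Neither of these was called in the knockdown. Mcm6 had 18.6, 19.3 and 16.3 CPM with TNF, within the spread of the control (-0.06 ± 0.08, adjusted p = 0.565), and Ccne1 had 0.221, 0.224 and 0.111 CPM (-0.59 ± 0.51, adjusted p = 0.369). E2f1 had 0.469, 0.503 and 0.250 CPM, which overlapped the control (0.64 ± 0.39, adjusted p = 0.194). The call for Mcm5 (0.52 ± 0.20, adjusted p = 0.0396) did not hold without control replicate 1 or 2 or TNF replicate 1 or 3 (adjusted p = 0.177, 0.0638, 0.0904 and 0.0696).

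Mki67 had 1.57, 1.71 and 1.06 CPM with TNF, all above the control (1.57 ± 0.30, adjusted p = 0.000237), and Top2a had 2.59, 1.71 and 1.39 (1.44 ± 0.28, adjusted p = 0.000305). Kif23 had 5.24, 4.92 and 6.20 CPM (0.85 ± 0.16, adjusted p = 0.00023). Of the 7 mitotic drivers 0 were called by edgeR, and 0 passed an unadjusted p under 0.05. Cdk1 had 0.938, 0.922 and 0.862 CPM (0.32 ± 0.25, adjusted p = 0.302), a narrow band just above the control. Aurkb had 0.0574, 0.144 and 0 CPM in the control and 0.469, 0.224 and 0.0834 with TNF, a difference that was not called (1.89 ± 0.78, adjusted p = 0.0547) in a gene that passed the filter only through the knockdown libraries. It was called with no filter on low counts and in the DESeq2 test (adjusted p = 0.0317 and 0.0453), and without control replicate 2, TNF replicate 3 or knockdown plus TNF replicate 2 (adjusted p = 0.0246, 0.0183 and 0.0472). Calls for Birc5 (1.27 ± 0.40), Nusap1 (0.72 ± 0.23) and Tpx2 (0.90 ± 0.27) were also lost when single libraries were left out: Birc5 without control replicate 3 or TNF replicate 2 (adjusted p = 0.0727 and 0.0795), Nusap1 without control replicate 1 or 2 (adjusted p = 0.0746 and 0.0513) and Tpx2 without TNF replicate 1 (adjusted p = 0.0645).

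Cdc20 went the other way. It had 6.68, 7.99 and 8.62 CPM with TNF against 19.7, 20.0 and 17.5 in the control (-1.30 ± 0.11, adjusted p = 1.7e-08), and it was the only one of the 38 called lower. It was also lower in knockdown plus TNF than in the knockdown alone, at 13.1, 11.9 and 13.8 CPM against 27.1, 29.1 and 34.8 (-1.23 ± 0.10, adjusted p = 1.97e-08). Because Cdc20 was so abundant it weighed heavily on any sum over mitotic genes, making up 48.1% ± 0.577 of their summed CPM in the control and 21.0% ± 3.45 with TNF (SD, n = 3). Summed mitotic CPM were 39.6 ± 2.51 in the control and 37.1 ± 1.44 with TNF, and 20.6 ± 1.17 and 29.3 ± 2.41 without Cdc20 (SD, n = 3).

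With TNF present, the knockdown was compared with TNF alone, in libraries that the comparison of knockdown with control does not use. Of the 38 genes 26 were higher and 1 lower (Pcna), where 25.4% of all genes tested were called higher and 26.9% lower, and the median was 0.77 against -0.01 over all genes. Of the 30 genes tested without help from the knockdown libraries 18 were higher and 1 lower, with a median of 0.69. The 2 knockdown comparisons shared 24 genes called higher, but 7 of these were tested only because they reached the filter in the libraries of the knockdown groups, which fixes much of their agreement. Of the 30, 17 were called higher in both comparisons, which is 70.8% of the 24 called without TNF and 94.4% of the 18 called with it. Over all genes tested the shared calls were 71.9% and 68.9% of the genes called higher. Differences had the same sign in 28 of the 30 genes (93.3%, against 78.9% of all genes tested). Across the 30 genes the 2 sets of differences had a Pearson r of 0.83, and across all genes tested 0.76, as a description over genes that are not independent.

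**Figure D3:**
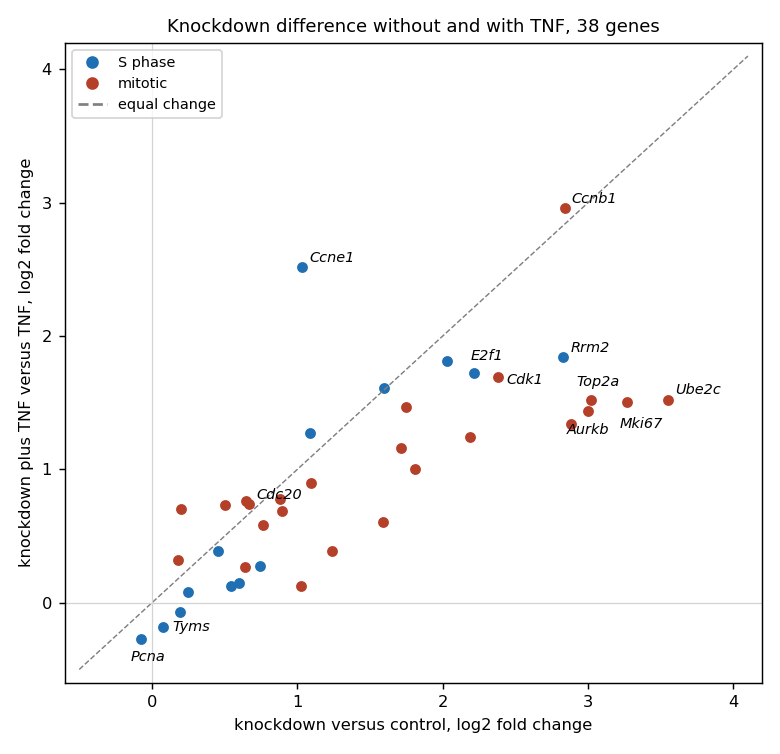
Log2 fold change of the 38 genes for knockdown versus control (x axis) and knockdown plus TNF versus TNF (y axis), S phase in blue and mitotic in red, with a dashed line of equal change. Mki67, Top2a and Ube2c lie at 3.02 or more on the x axis and at 1.5 to 1.52 on the y axis, below the line, while Ccnb1 (2.84 and 2.96) lies close to it and Ccne1 above it.

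Ccnb1 had 0.0552, 0.168 and 0.0834 CPM with TNF and 0.695, 0.865 and 0.889 in knockdown plus TNF (2.96 ± 0.44, adjusted p = 1.84e-05). Ccne1, which was not called in the knockdown alone, had 0.221, 0.224 and 0.111 CPM against 0.909, 1.08 and 1.24 (2.52 ± 0.45, adjusted p = 0.00013), with no overlap. Ccnb1 and Ccne1 were both tested only because they reached the filter in the knockdown libraries, where they were higher. E2f1 and Cdk1 rose by 1.72 ± 0.33 and 1.69 ± 0.22, and Mki67 and Top2a by 1.5 ± 0.24 and 1.52 ± 0.23. Aurka was higher here by 0.73 ± 0.22 (adjusted p = 0.00993). The helicase genes Mcm2, Mcm3, Mcm5 and Mcm7 were called higher by the knockdown without TNF and were not called with it, at 0.08 to 0.27. Pcna was lower, at 36.0, 39.9 and 36.5 CPM in knockdown plus TNF against 48.3, 44.5 and 42.8 with TNF (-0.27 ± 0.06, adjusted p = 0.000998). Tyms had 5.22, 6.06 and 5.66 CPM against 6.71, 7.24 and 5.25 (-0.18 ± 0.15, adjusted p = 0.342). Of the 24 mitotic genes 19 were called higher (14 of the 19 tested without help from the knockdown libraries), and 12 of the 24 were without TNF replicate 3, when Ccna2, Bub1, Aurkb, Ube2c, Cenpf, Prc1 and Tpx2 were lost. All of these but Ube2c were also lost without TNF replicate 2. Ccna2, Aurkb, Cenpf, Prc1 and Tpx2 were lost without knockdown plus TNF replicate 1 as well. Tpx2 was further lost with no filter, with the libraries compared alone and with a replicate block (adjusted p = 0.0571, 0.0631 and 0.0550).

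Adding TNF to the knockdown changed few of the genes. Of the 38, 2 were higher (Mcm7 and Kif23) and 1 was lower (Cdc20), where 22.8% and 22% of all genes tested were called higher and lower, and the median was 0.02. All 3 are among the 30 genes that did not need the knockdown libraries to be tested, whose median was 0.04. Mcm7 had 20.6, 22.9 and 21.0 CPM in the knockdown and 27.5, 30.4 and 28.4 in knockdown plus TNF (0.42 ± 0.07, adjusted p = 9.02e-05). Kif23 had 9.17, 8.76 and 10.2 CPM in knockdown plus TNF, above the 5.46, 5.57 and 5.72 of the knockdown (0.75 ± 0.15, adjusted p = 0.000458), and was highest of all groups there. Ccne1 differed by 0.89 ± 0.39 (adjusted p = 0.0726) and Ube2c, at 0.508, 0.622 and 0.566 CPM against 0.911, 0.947 and 0.973, by -0.74 ± 0.42 (adjusted p = 0.165). Of the 12 genes that TNF raised in the control, Mki67 had 3.61, 4.35 and 4.34 CPM in knockdown plus TNF and Top2a 6.18, 5.06 and 5.09, within or near the spread of the knockdown alone (adjusted p = 0.515 and 0.856).

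Whether the TNF difference depended on the knockdown was tested with an interaction term, which subtracts the log2 fold change of TNF in the control from that in the knockdown. Of the 38 genes 0 were called higher and 2 lower, where 7.54% of all genes tested were called higher and 4.81% lower. The share of the 38 called lower was thus near that of all genes. Both called genes are among the 30. Mki67 had an interaction of -1.77 ± 0.37 (adjusted p = 0.00445), with TNF differences of 1.57 in the control and -0.19 in the knockdown. Top2a had -1.50 ± 0.35 (adjusted p = 0.0094), from 1.44 and -0.06. Both calls held with each of the 12 libraries left out (adjusted p up to 0.0208 and 0.0401), and neither held in limma on log2(FPKM + 1) (adjusted p = 0.0844 and 0.149), a scale on which differences of low genes shrink and on which Ube2c, Nusap1 and Rrm2 were called lower (adjusted p = 0.0168, 0.0366 and 0.0474) and Ccne1 higher (adjusted p = 0.0417). Ube2c had the most negative value (-2.03 ± 0.79, adjusted p = 0.102) and was called without TNF replicate 3 (-2.56, adjusted p = 0.0173), while Ccne1 and Foxm1 had the most positive, at 1.48 ± 0.65 and 0.50 ± 0.43 (adjusted p = 0.149 and 0.51). Nusap1 was called lower as well without control replicate 3, TNF replicate 3 or knockdown plus TNF replicate 2 (adjusted p = 0.0405, 0.045 and 0.0443). Those 3 settings gave 4 called genes, the fourth being Mcm2, Ube2c or Pcna, respectively. Cdc20 had an interaction of 0.07 ± 0.15 (adjusted p = 0.828).

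Knockdown plus TNF was last compared with the control. Of the 38 genes 32 were higher and 1 lower (Cdc20), where 30.1% and 30.5% of all genes tested were called higher and lower, and the median was 1.05. Of the 30 genes that did not need the knockdown libraries to be tested 24 were higher and 1 lower, with a median of 0.89, and all 8 others were higher. Mki67 had the largest difference of the 30 (3.08 ± 0.28, adjusted p = 2.12e-08), and Aurkb, one of the 8, differed by 3.32 ± 0.69 (adjusted p = 0.000417). Bub1b was not called without control replicate 2 or 3 (adjusted p = 0.0829 and 0.129) or knockdown plus TNF replicate 2 or 3 (0.0612 and 0.0775). Cenpf was lost without control replicate 1 or 3 (0.0599 and 0.0743) or knockdown plus TNF replicate 2 (0.0546), and in limma on log2(FPKM + 1) (0.0578). Tyms was lost without control replicate 2 (0.101). Cdc20 was lower by 0.56 on the log2 scale (adjusted p = 0.000157), and Mcm4, with 15.4, 17.2 and 18.1 CPM against 18.6, 16.0 and 16.9 in the control, had a difference of -0.02 ± 0.09 whose sign changed between settings.

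S phase and mitotic genes were then set side by side. Among the genes tested without help from the knockdown libraries, 8 of 11 S phase genes were higher in the knockdown with a median log2 fold change of 0.54, and 16 of 19 mitotic genes with a median of 1.02, where 24.4% of all genes tested were higher with a median of -0.03. Over all 14 S phase and all 24 mitotic genes the medians were 0.67 and 1.41. With TNF 6 of 14 S phase genes were higher and 0 lower (median 0.34), and 6 of 24 mitotic genes were higher and 1 lower (median 0.41), where 23.3% of all genes tested were higher and 24.2% lower, so the share of mitotic genes called higher was near that of all genes. In knockdown plus TNF against TNF 4 of the 11 S phase genes were higher and 1 lower (median 0.15), and 14 of the 19 mitotic genes were higher (median 0.74), where 25.4% and 26.9% of all genes were called higher and lower. The mean of log2(CPM + 1) over the S phase genes was 2.11 ± 0.0416 in the control, 2.32 ± 0.0665 with TNF, 2.57 ± 0.00653 in the knockdown and 2.65 ± 0.0447 in knockdown plus TNF (SD, n = 3). Over the mitotic genes it was 0.971 ± 0.0316, 1.13 ± 0.072, 1.72 ± 0.0449 and 1.65 ± 0.0162 in the same order. The gap between the S phase and mitotic means was 1.14 ± 0.0719 in the control, 1.19 ± 0.0245 with TNF, 0.852 ± 0.0432 in the knockdown and 0.995 ± 0.0546 in knockdown plus TNF. Its range was 1.09–1.22 over the control libraries and 0.803–0.884 over the knockdown libraries. The means and gaps include the 8 genes that passed the filter only through the knockdown libraries, where they were higher. No means without these genes are given. The order of control and TNF depended on the pseudocount, with gaps of 1.52 and 1.40 at a pseudocount of 0.1. These means carry no test, because the members were chosen with results known.

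**Figure D4:**
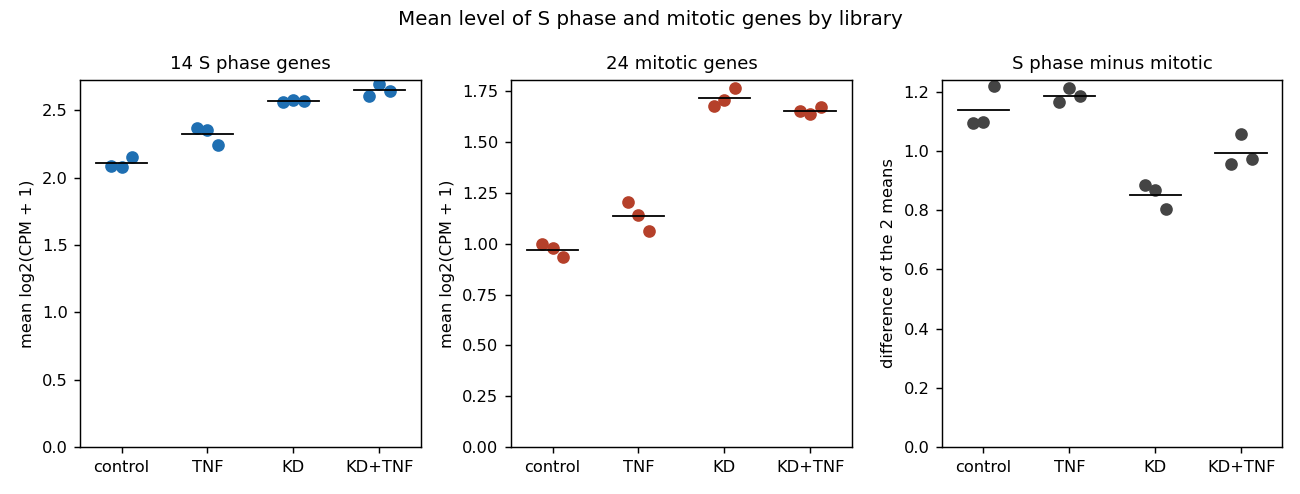
Mean log2(CPM + 1) of the 14 S phase genes (left), of the 24 mitotic genes (middle) and the S phase mean minus the mitotic mean (right) in each organoid library, 3 points a group with the group mean as a line and axes from 0. The mitotic mean is 0.971 in the control and 1.72 in the knockdown, and the gap between the means is smallest in the knockdown at 0.852. The means include the 8 genes that passed the filter only through the knockdown libraries.

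The members were also read by promoter motif, with no test of a difference between the motif classes. Of the 15 genes with a CHR match 13 were tested without help from the knockdown libraries, and 11 of these were higher in the knockdown (median 0.88). All 6 genes with an E2F match and no CHR match were tested that way and were higher (median 0.57). Of the 10 with neither motif 6 were tested that way, and 4 of these were higher (median 0.84), among them E2f1 and Birc5. With TNF 4 of those 13, 3 of those 6 and 4 of those 6 were higher. Over all genes tested 24.4% were higher in the knockdown (median -0.03) and 23.3% with TNF, the latter near the share of the CHR genes. The CHR genes include Cdc20, the gene that fell. The promoters of Cdc20 and Ube2c printed above each hold a CHR match and CCAAT boxes, while TNF left these genes at log2 fold changes of -1.30 and 1.29, the latter not called (adjusted p = 0.122).

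Other genes of the cycle, from wider lists, were read for the same comparisons. Their counts stand against the shares of all genes tested, 24.4% called higher and 28.2% lower in the knockdown and 23.3% higher and 24.2% lower with TNF. Of 25 other S phase genes tested, 10 were higher and 0 lower in the knockdown, and 5 were higher and 5 lower with TNF, the latter near the share of all genes. Of 34 other mitotic genes tested, 18 were higher and 1 lower in the knockdown, and 7 were higher and 2 lower with TNF. Without genes that passed the filter only through the knockdown libraries, 9 of 24 other S phase genes and 10 of 24 other mitotic genes were higher in the knockdown, with medians of 0.16 and 0.50, against 0.54 and 1.02 for the S phase and mitotic members with such genes left out. Cdc7, a kinase that fires origins, had 1.84, 1.91 and 1.80 CPM in the control and 5.93, 5.46 and 4.31 in the knockdown (1.5 ± 0.18). Ckap2, Espl1 (separase) and Uhrf1 rose in the knockdown by 2.73 ± 0.27, 2.84 ± 0.47 and 1.89 ± 0.26. Tk1, thymidine kinase, rose with TNF, from 0.115, 0.202 and 0.147 CPM to 2.15, 1.76 and 2.17 (3.68 ± 0.36, adjusted p = 9.51e-08). Every control value of Tk1 was below the cutoff of the filter on low counts, 0.276 CPM. It counts among the 24 other S phase genes only with the TNF libraries, where it was higher. In the knockdown the log2 fold change of Tk1 was 2.17, the highest of those 24 genes. Smc2, a condensin subunit, rose with TNF by 0.94 ± 0.08 and was not called in the knockdown (-0.02 ± 0.08, adjusted p = 0.876).

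Of 18 genes that set the pace in G1, 6 were higher and 5 lower in the knockdown, close to the shares of all genes, and 7 were higher and 2 lower with TNF. Ccnd2, a cyclin D gene, had 55.3, 60.0 and 56.2 CPM in the control, 103, 91.2 and 90.7 with TNF and 13.6, 17.2 and 13.8 in the knockdown (knockdown -1.95 ± 0.09, adjusted p = 9.24e-12). Every knockdown library was below every control library, and every TNF library was above. Myc, a growth-promoting transcription factor, had 2.52, 3.32 and 3.30 CPM in the control and 20.9, 22.3 and 23.5 with TNF (2.87 ± 0.12, adjusted p = 1.31e-12), and was not called in the knockdown (-0.28 ± 0.14, adjusted p = 0.0944). Ccnd1, another cyclin D gene, had 7.80, 7.80 and 7.65 CPM in the control and 43.3, 23.5 and 19.4 with TNF (1.89 ± 0.28, adjusted p = 0.000439).

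Of 7 CDK inhibitors, which hold the cycle back, 4 were higher and 2 lower in the knockdown, and 3 were higher and 2 lower with TNF, where 24.4% and 28.2% of all genes were called higher and lower in the knockdown and 23.3% and 24.2% with TNF. Cdkn2a, which encodes p16 and ARF, had 6.19, 6.12 and 7.48 CPM in the control and 0.754, 1.39 and 1.83 in the knockdown (-2.33 ± 0.23, adjusted p = 2.93e-07), and rose with TNF by 0.92 ± 0.20. Cdkn2b, p15, had 11.0, 12.4 and 10.5 CPM in the control and 5.18, 5.27 and 5.10 in the knockdown (-1.12 ± 0.10, adjusted p = 4.33e-08). Cdkn1c, p57, went up, from 39.3, 36.1 and 38.7 CPM to 140, 145 and 151 (1.94 ± 0.14, adjusted p = 1.45e-06). Cdkn1a, p21, a target of p53, had 43.3, 44.0 and 43.4 CPM in the control, 90.3, 78.2 and 72.6 with TNF, 64.2, 56.8 and 57.4 in the knockdown and 160, 162 and 163 in knockdown plus TNF, so it was higher than the control in all 3 treated groups (0.45 ± 0.07 in the knockdown, adjusted p = 1.86e-05).

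The p53 targets and the DNA damage checkpoint were the last lists. Of 18 p53 targets 11 were higher and 1 lower in the knockdown (24.4% and 28.2% of all genes), and 11 were higher and 2 lower with TNF (23.3% and 24.2% of all genes). Phlda3 rose in the knockdown by 1.30 ± 0.08 and Eda2r by 1.07 ± 0.10, while Mdm2 had 70.1, 68.7 and 68.6 CPM in the control and 68.4, 71.9 and 65.6 in the knockdown (-0.01 ± 0.05, adjusted p = 0.881). Plk2 rose with TNF by 2.35 ± 0.07 and was not called in the knockdown (0.03 ± 0.08, adjusted p = 0.789). Trp53 had 47.1, 44.2 and 46.8 CPM in the control, 116, 128 and 121 with TNF and 40.3, 44.6 and 44.8 in the knockdown. Of 12 checkpoint genes 4 were higher and 2 lower in the knockdown, near the shares of all genes, among them Cdc25b, a phosphatase that activates CDK1 (1.10 ± 0.19, adjusted p = 0.000284), and Wee1, the kinase that inhibits it (-0.45 ± 0.07, adjusted p = 5.58e-05).

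The inner ear table was read for level only, and it was scaled separately from the organoid table. Per length, Pcna led there as well, at 34.9 FPKM over the 12 libraries, followed by Mcm7, Mcm4 and Mcm2 at 7.68, 5.33 and 3.79 FPKM. Cdc20 stood at 2.53 FPKM, against 10.4 in the control organoids, and Mki67 at 0.248 FPKM, against 0.0457. The mean of log2(CPM + 1) over the 38 genes was 1.74 ± 0.104 at 3 months, 1.71 ± 0.0869 at 11 months and 1.87 ± 0.136 at 20 months (SD, n = 4), and ranged over 1.58–1.81, 1.61–1.81 and 1.78–2.07. The ages overlapped, and the highest library was replicate 1 at 20 months. Without that library the mean at 20 months was 1.80. In that library Mki67 had 8.79 CPM, against 1.75 to 2.44 in the other 3 of its age. Summed erythroid and marrow markers varied from 106 to 1457 CPM over the 12 libraries, mostly globin RNA (Hba-a1 from 78.3 to 978 CPM and Hbb-bt from 17.4 to 337 CPM, with Elane and Prtn3 at most at 3.05 and 3.84 CPM), and their part in these levels was not tested.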

How the data were processed

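Gene levels were measured in 24 libraries, 12 of organoids and 12 of inner ear. Per the submitters' processing notes the tools were Trimmomatic, HISAT2, HTSeq and DESeq2 with build mm10, named there without versions or settings. The authors deposited raw read counts per gene and FPKM per gene. The deposited FPKM equalled counts divided by gene length and column total in 10965 genes checked. The members and all lists were chosen with earlier results of these data known.

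Organoid counts were tested with edgeR 4.0.16 (filterByExpr with a minimum count of 10, TMM scaling, robust quasi-likelihood test) in R 4.3.3, in 1 fit of all 4 groups, with Benjamini-Hochberg adjustment over all 15888 genes tested. Adjusted p-values in the text come from that test unless another is named. Standard errors are of log2 fold changes. Inner ear values (totals 30599012 to 38451292) were not tested. Scores are the mean of log2(CPM + 1). Fits were tested on simulated counts. No pair of libraries agreed within sampling noise.

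Values in every library are given for Rbm25, for the 2 most abundant members of each role group and for the 2 highest and 2 lowest changes of each comparison, and other genes named were picked from the lists by smallest p, by fixed name, or after their values were seen. Alternatives were DESeq2 1.42.0, DESeq2 size factors, no filter, the libraries compared alone, limma 3.58.1 on log2(FPKM + 1), a minimum fold of 1.5, a replicate block, a pseudocount of 0.1 and leaving out each library. Leaving out single inner ear libraries was added after the data were seen.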

Additional observations from a re-analysis of the deposited data

Results flagged for a closer look

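In the inner ear, 10 of 123 groups of 4 values held a library far from the others (8.13%), where chance gives about 1 in 20. At 3 months these were Rrm2 in replicate 2 at 1.65 CPM (others 1.29 to 1.35), Bub1b in replicate 4 at 6.77 CPM (others 4.51 to 4.70), and replicate 3 for Aurkb at 0.213 CPM (others 0.0311 to 0.0587) and Prc1 at 2.13 CPM (others 1.17 to 1.32). At 11 months Mcm4 was lowest in replicate 1 at 19.3 CPM (others 20.9 to 21.0), and Ube2c highest in replicate 2 at 1.36 CPM (others 0.196 to 0.370). At 20 months replicate 1 stood apart for Rrm2 at 3.37 CPM (others 1.41 to 1.63) and Mki67 at 8.79 CPM (others 1.75 to 2.44), and replicate 2 for Bub1b at 5.40 CPM (others 3.67 to 3.90) and Ccnb1, listed at 0 CPM (others 0.430 to 0.469). Replicate 2 at 11 months also had the most erythroid and marrow marker RNA, at 1457 CPM, whose part in the Ube2c value was not tested.

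The TNF difference depended on the knockdown, by the interaction term, in 19 genes of the 38 members and the wider lists of the cycle, DNA damage and p53. It was lower with the knockdown in 12, Mki67 (-1.77), Top2a (-1.50), Tk1 (-2.73), Pola1 (-0.57), Slbp (-0.29), Cdca2 (-2.19), Espl1 (-2.06), Atr (-0.49), Polk (-0.47), Atm (-0.38), Smc2 (-0.36) and Eda2r (-0.52) on the log2 scale. It was higher with the knockdown in 7, Lig1 (0.71), E2f5 (0.41), Fas (2.00), Cdkn1a (0.56), Cdkn2b (0.78), Btg2 (0.77) and Plk2 (0.45). Over all genes tested, 7.54% were called higher and 4.81% lower for this term. Calls in these lists, both directions together, were about as frequent as over all genes.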

How the results depend on the processing

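Over single genes and settings, the direction and side of the threshold held in 706 of 758 gene and setting pairs for TNF, 1063 of 1102 for the knockdown, 994 of 1083 for knockdown plus TNF against TNF, 511 of 570 against the knockdown, 618 of 646 against the control and 81 of 88 for the interaction. Signs turned for Tyms in the knockdown (-0.062 without control replicate 2, and from -0.062 to 0.196 over single libraries left out) and for Mcm4 in knockdown plus TNF against control (0.0059 with no filter, 0.042 in limma, 0.037 without control replicate 1 and 0.049 without knockdown plus TNF replicate 1, and from -0.071 to 0.049 over single libraries left out), neither of them called. With a minimum fold of 1.5, which by construction asks for larger changes, 2 genes were higher with TNF, 17 in the knockdown, 9 in knockdown plus TNF against TNF (0 lower), 0 against the knockdown and 18 against the control (0 lower), and 0 were lower for the interaction. In limma on log2(FPKM + 1) knockdown plus TNF against the knockdown gave 4 higher and 3 lower and the interaction 1 higher, and DESeq2 size factors, no filter and the DESeq2 test gave 2 lower in the former. The cause was not tested.

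Leaving out single libraries gave 11 to 14 genes higher with TNF, 29 to 32 in the knockdown, 19 to 26 in knockdown plus TNF against TNF, 2 to 3 higher and 1 to 2 lower against the knockdown, 30 to 32 against the control and 2 to 4 lower for the interaction. The gap between S phase and mitotic means ranged over 1.10 to 1.16 in the control, 1.18 to 1.20 with TNF, 0.836 to 0.877 in the knockdown and 0.964 to 1.01 in both, and inner ear means over 1.71 to 1.79, 1.68 to 1.75 and 1.80 to 1.90 at 3, 11 and 20 months. With a pseudocount of 0.1 the gaps were 1.52, 1.40, 0.982 and 1.17 and the inner ear means 0.987, 0.890 and 1.19. The control gap was then larger than the TNF gap, the reverse of the order with a pseudocount of 1.

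Same-numbered libraries of different groups mostly did not deviate together (r from -0.054 to 0.298, over 0.1 in 2 of 18 pairs, and 10 of 36 best matched by their own number). Both pairs over 0.1 joined control and knockdown, at 0.298 for replicate 1 and 0.233 for replicate 3. Control replicate 1 with knockdown replicate 3 had -0.248, and control replicate 3 with knockdown replicate 1 had -0.271. Replicate 2 of these groups had 0.024, and whether libraries were paired was not tested. With the replicate number as a block, 11 genes were higher with TNF, 30 in the knockdown, 25 in knockdown plus TNF against TNF, 2 against the knockdown and 32 against the control, and 2 were lower for the interaction. Depth limits the mitotic genes with under 10 control reads, such as Bub1, Ube2c and Aurkb, and also S phase genes with few, such as Rrm2 (17) and Ccne2 (18).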
